A study of Mus musculus with 12 samples.

Results

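Among the transcripts of mouse embryonic stem cells (ESCs) and their derivatives, 10 genes that mark or drive the passage between epithelial and mesenchymal states were followed: the adhesion genes Cdh1, Cdh2, Cdh11 and Epcam, the intermediate filament gene Vim, and the transcription factor genes Snai1, Snai2, Twist1, Zeb1 and Zeb2. They were chosen with earlier results of these data known and found by symbol, and all 10 were among the 52636 genes of the count tables. The samples were embryoid bodies (EBs) at day 6 and undifferentiated ESCs, each from knockdown (KD) and wild-type (WT) cells of the E14 line, a mouse ESC line. The KD targeted circKat6b-e2, a circular transcript of the Kat6b gene, and the sample titles mark it as an shRNA. EBs are aggregates in which ESCs leave pluripotency and form cells of several lineages. The groups were thus KD EBs at day 6, WT EBs at day 6, KD ESCs and WT ESCs, with 3 libraries each that the series describes as biological replicates. ESCs of both genotypes were grown on gelatin with serum, LIF, the MEK inhibitor PD0325901 and the GSK3 inhibitor CHIR99021. The labels state neither a control shRNA in WT cells nor how many clones the KD cells came from, and effects of these cannot be told apart from that of the circular RNA. The tables give gene counts of RNA selected on poly-T, and the circular RNA itself was not measured.

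E-cadherin, the product of Cdh1, joins epithelial cells at adherens junctions, and EPCAM is a further adhesion molecule of epithelia and of pluripotent cells. In an epithelial-mesenchymal transition (EMT), as at gastrulation, cells lower E-cadherin and raise N-cadherin (Cdh2) or cadherin 11 (Cdh11), an exchange called the cadherin switch, and vimentin (Vim) becomes a main filament of the cytoplasm. The zinc-finger repressors of the SNAI family (Snai1, Snai2) and the ZEB family (Zeb1, Zeb2) bind E-box sequences in the promoters of epithelial genes, Cdh1 among them, and the basic helix-loop-helix factor TWIST1 acts with them in mesoderm and neural crest.

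The tables held 25.4 to 37.8 M counts per library and 20021 to 23548 genes with a count. No replicate pair was identical. The WT ESC library of replicate 2 stood apart from the others of its group, with a chi-square per gene of 60.9 and 61.7 in its pairs, against 4.96 to 9.57 in the other replicate pairs. All 10 naive pluripotency genes listed as markers had counts in the files. Their summed level was 451 to 458 CPM (counts-per-million) in KD EBs and 276 CPM in each WT EB library. In ESCs it was 3438 to 3557 CPM in KD ESCs and 3007 to 3288 CPM in WT ESCs. Tbx3 made up the largest part of both EB sums, at a mean of 243 CPM in KD EBs and 182 CPM in WT EBs. It differed less from ESCs (307 CPM in KD ESCs, 264 CPM in WT ESCs) than the sum did, so the EB sums say little of the other markers. The host gene Kat6b was higher in KD EBs than in WT EBs by 0.98 on the log2 scale (adjusted p = 2.57e-15), and the value in ESCs was 0.41 (adjusted p = 0.0893, edgeR's quasi-likelihood test for both). This gene count says nothing of the circular form.

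Sequences before RefSeq starts of the genes are shown because SNAI and ZEB proteins recognise the E-box CAGGTG. It reads CACCTG on the other strand, and some basic helix-loop-helix proteins also bind it. The 250 bases before the RefSeq start (build GRCm38.p6) were searched on both strands for these letters, set in capitals. The sequences are given 5′ to 3′ on the gene's own strand for Epcam and Snai1, which held the letters, and for Twist1 and Vim, which did not. Cldn4, a claudin of tight junctions and 1 of the epithelial genes described further on, is also shown. It was taken from the epithelial genes that both held the letters and fell in KD EBs, so the sequences shown do not tell whether the letters go with a fall.
Epcam: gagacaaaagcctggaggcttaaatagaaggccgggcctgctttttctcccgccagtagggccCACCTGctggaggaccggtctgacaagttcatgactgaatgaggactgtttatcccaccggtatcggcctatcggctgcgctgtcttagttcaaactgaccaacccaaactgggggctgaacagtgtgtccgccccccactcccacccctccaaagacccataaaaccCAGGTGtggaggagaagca
Snai1: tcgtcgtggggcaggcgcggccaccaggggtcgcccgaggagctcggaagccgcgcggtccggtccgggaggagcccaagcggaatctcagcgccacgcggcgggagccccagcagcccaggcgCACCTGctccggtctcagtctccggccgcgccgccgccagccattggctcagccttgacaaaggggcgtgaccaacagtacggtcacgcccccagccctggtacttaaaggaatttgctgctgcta
Twist1: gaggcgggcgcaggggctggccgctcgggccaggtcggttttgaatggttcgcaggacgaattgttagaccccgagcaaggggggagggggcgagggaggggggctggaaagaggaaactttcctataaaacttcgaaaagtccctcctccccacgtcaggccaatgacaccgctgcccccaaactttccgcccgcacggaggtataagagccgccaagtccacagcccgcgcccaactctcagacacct
Vim: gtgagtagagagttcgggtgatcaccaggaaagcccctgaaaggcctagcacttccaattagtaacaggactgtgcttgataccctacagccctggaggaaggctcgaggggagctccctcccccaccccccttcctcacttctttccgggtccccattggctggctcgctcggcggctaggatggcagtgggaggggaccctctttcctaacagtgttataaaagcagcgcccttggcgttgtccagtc
Cldn4: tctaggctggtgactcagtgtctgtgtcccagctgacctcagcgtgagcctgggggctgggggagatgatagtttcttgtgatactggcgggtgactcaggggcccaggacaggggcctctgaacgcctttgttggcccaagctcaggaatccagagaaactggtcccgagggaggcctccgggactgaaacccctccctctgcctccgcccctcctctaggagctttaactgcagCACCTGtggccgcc
These windows are chr17:87635729-87635978 on the plus strand for Epcam, chr2:167537945-167538194 on the plus strand for Snai1, chr12:33957421-33957670 on the plus strand for Twist1, chr2:13574061-13574310 on the plus strand for Vim and chr5:134946935-134947184 on the minus strand for Cldn4. Epcam held the E-box in 2 places, the nearer of which began 19 bases before the start, Snai1 held it once, 126 bases before, and Cldn4 once, 14 bases before. Windows were found for 5 of the 10 genes, and those of Zeb2, of which there were 4, did not hold these letters. A RefSeq start need not be the outer end of the gene as counted. The Vim window and some of the Zeb2 windows lie inside the spans of these genes given below. Cdh1, Cdh2, Cdh11, Snai2 and Zeb1 are not shown. Among all 27025 genes with a window, 19.4% held the E-box, and among all 32851 windows 17.2% did. Of the epithelial genes grouped as targets of SNAI and ZEB repression, 12 of 16 with a window held it, as did 4 of 7 factors that maintain the epithelial state, 3 of 9 gastrulation EMT genes, 4 of 14 catenins and junction partners, 1 of 13 other cadherins and 1 of 9 corepressors. None of 11 mesenchymal genes, 12 other transcription factors of EMT, 13 TGF-beta pathway genes or 6 filament partners held it. The epithelial list was drawn up from genes known as targets of these repressors, so its share is not independent of the E-box, and a match of letters is a description and not a binding site.

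In EBs the epithelial adhesion genes fell in KD and most mesenchymal members rose. By edgeR's quasi-likelihood test at an adjusted p under 0.05, 9 of the 10 genes differed between KD EBs and WT EBs, 6 higher and 3 lower in KD, where 55.7% of all 17355 tested genes differed, 28% higher and 27.7% lower. The members' log2 fold changes had a median of 0.85, against 0.00 over all tested genes. As the members were chosen with earlier results known, this contrast is a description. With so large a share of all genes called, the count by itself does not set the members apart, and the sizes of several are given with the share of tested genes that moved less.

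Cdh1 fell 1.95-fold in KD EBs. Its level was 149.5, 145 and 139 CPM in the 3 KD EB libraries and 279, 264 and 268 CPM in the 3 WT EB libraries, so that the groups lay far apart. The log2 fold change was -0.96 with a standard error (SE) of 0.04 (edgeR adjusted p = 3.51e-20), larger in size than that of 83.4% of tested genes. Cdh1 lies on chromosome 8 at 106603351 to 106670246 (plus strand, GRCm38), and no other gene's exons overlap it there. Epcam, on chromosome 17 at 87635979 to 87651106, fell less, by 1.36-fold. It stood at 97.2, 107 and 96.7 CPM in KD EBs and 126, 129 and 138 CPM in WT EBs, a gap with no overlap, and its log2 fold change of -0.44 (SE 0.04, edgeR adjusted p = 8.25e-10) exceeded that of 59.5% of tested genes. In bulk RNA, fewer cells of a type and less RNA per cell cannot be told apart. Levels in CPM here and below share a single scale over all 12 libraries, on which KD minus WT in EBs lies 0.06 above the fold change fitted in EBs alone (log2).

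**Figure D1:**
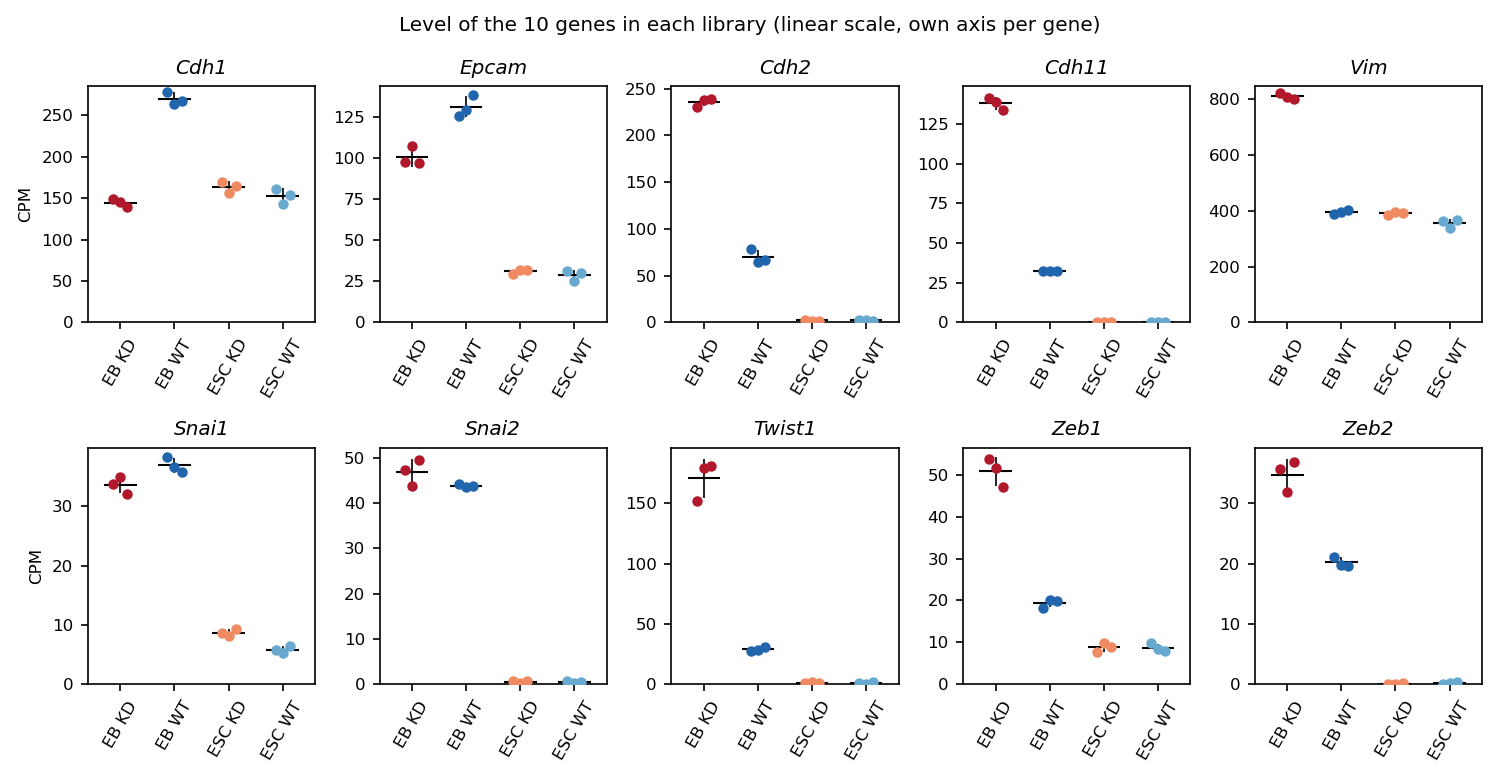
Level of each of the 10 genes in CPM (linear axis from 0, own axis per gene) in every library of KD EBs, WT EBs, KD ESCs and WT ESCs; the horizontal line is the mean and the vertical line the SD of 3 libraries. Cdh1 and Epcam are lower in KD EBs than in WT EBs, Cdh2, Cdh11, Vim, Twist1, Zeb1 and Zeb2 are higher without overlap, and the 2 ESC groups lie close together for most genes.

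Both mesenchymal cadherins rose in KD EBs, and vimentin with them. Cdh2 stood at 231, 238 and 239 CPM in KD EBs and at 78.1, 64.8 and 66.7 CPM in WT EBs, a rise of 3.24-fold (log2 1.70, SE 0.06, edgeR adjusted p = 6.54e-13). All 3 KD libraries were far above all 3 WT libraries. Cdh11, the cadherin of loose mesenchyme and of bone-forming cells, had 142, 139 and 134 CPM in KD EBs and 32.42, 32.44 and 32.41 CPM in WT EBs. This was the tightest of the WT values among the 10 genes, and the rise was 4.09-fold (log2 2.03, SE 0.05, edgeR adjusted p = 8.82e-26), past the size of 95.8% of tested genes. Vim had 822, 807 and 802 CPM in KD EBs and 387, 395 and 403 CPM in WT EBs, and rose 1.97-fold (log2 0.98, SE 0.03, edgeR adjusted p = 6.19e-23). Cdh11 lies on chromosome 8 at 102632095 to 102785642 (minus strand), Cdh2 on chromosome 18 at 16588877 to 16809246 (minus strand) and Vim on chromosome 2 at 13573927 to 13582826 (plus strand).

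The 5 transcription factor genes did not move as a group: Twist1, Zeb1 and Zeb2 rose, Snai1 fell slightly and Snai2 did not pass the test. Twist1 (chromosome 12, 33957671 to 33959829) had the largest fold change of the 10 genes. It stood at 152, 179 and 181 CPM in KD EBs and 27.4, 27.9 and 30.4 CPM in WT EBs, a 5.73-fold rise (log2 2.52, SE 0.06, edgeR adjusted p = 1.91e-17) that exceeded in size 97.8% of tested genes. Even the lowest KD library lay far above the highest WT library.

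Zeb1 (chromosome 18, 5591860 to 5775467) rose 2.52-fold. It had 53.8, 51.7 and 47.1 CPM in KD EBs and 18.2, 20.1 and 19.9 CPM in WT EBs (log2 1.33, SE 0.07, edgeR adjusted p = 3.17e-16). Zeb2 (chromosome 2, 44983632 to 45117395), which together with SMAD proteins represses genes in neural crest and mesoderm, had 35.7, 31.9 and 36.9 CPM in KD EBs and 21.2, 19.8 and 19.6 CPM in WT EBs, a 1.65-fold rise (log2 0.73, SE 0.08, edgeR adjusted p = 1.98e-09). Neither pair of groups overlapped. Reads were counted without regard to strand, and 1.93% of the exon bases of Zeb1 and 2.37% of those of Zeb2 overlap other genes, antisense Gm10125 at Zeb1, and Mir5129 and antisense Zeb2os and Gm27761 at Zeb2. Those genes had at most 19 and 9 counts in any library.

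Snai1 (chromosome 2, 167538195 to 167542814), the SNAI factor needed for gastrulation in the mouse, had 33.8, 34.99 and 32.2 CPM in KD EBs and 38.3, 36.7 and 35.8 CPM in WT EBs. The groups did not overlap but were separated by less than 1 CPM, and the fall of 1.14-fold (log2 -0.19, SE 0.07, edgeR adjusted p = 0.0141) lost its call without KD EB replicate 3 (adjusted p = 0.0863), without WT EB replicate 1 (adjusted p = 0.0599) and in the fit of all 12 libraries (log2 -0.13, adjusted p = 0.319). Snai2 (chromosome 16, 14705852 to 14709395), the SNAI factor of neural crest and mesoderm, had 47.2, 43.7 and 49.7 CPM in KD EBs and 44.2, 43.5 and 43.8 CPM in WT EBs. These ranges overlap, and the log2 fold change was 0.04 (SE 0.06, edgeR adjusted p = 0.618). A p that misses the threshold does not show that the levels are equal.

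RPKM is the CPM per kilobase of a gene's annotated exons, a length that need not be that of the transcripts present. Orders, ratios and shares between genes in RPKM depend on these lengths. Per unit of exon length, Vim was the highest of the 10 genes in both groups of EBs. It had 171 ± 2.24 RPKM in KD EBs and 83.3 ± 1.65 RPKM in WT EBs (SD, n = 3). In KD EBs, Twist1 came next with 105 ± 9.94 RPKM, before Epcam (49.2 ± 2.97), Cdh1 (31.6 ± 1.11), Cdh2 (29.3 ± 0.59), Snai2 (23.1 ± 1.46), Snai1 (20.8 ± 0.88), Cdh11 (15.5 ± 0.43), Zeb1 (4.96 ± 0.33) and Zeb2 (1.75 ± 0.13). Of these neighbours in KD EBs, Snai2 and Snai1 overlapped between libraries and the rest did not. In WT EBs the order was Vim, Epcam (64.2 ± 3.12 RPKM), Cdh1 (59.1 ± 1.63), Snai1 (22.8 ± 0.78), Snai2 (21.6 ± 0.17), Twist1 (17.6 ± 0.99), Cdh2 (8.66 ± 0.90), Cdh11 (3.64 ± 0.0016), Zeb1 (1.89 ± 0.10) and Zeb2 (1.01 ± 0.043), with no overlap between neighbours. Per unit of exon length, Twist1 thus had rank 2 of the 10 genes in KD EBs and rank 6 in WT EBs. The ZEB genes were the lowest in both, and their exon lengths were the longest (19942 bases for Zeb2, 10266 bases for Zeb1). In CPM they were also the lowest in WT EBs, but in KD EBs Zeb1 (mean 50.9 CPM) lay above Snai2 (46.9 CPM) and Snai1 (33.7 CPM).

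Per unit of exon length, Cdh2 was near parity with Cdh1 in KD EBs, while Cdh1 was in large excess over Cdh2 in WT EBs. The ratio of Cdh2 to Cdh1 in RPKM was 0.874, 0.931 and 0.973 in the KD EB libraries and 0.159, 0.139 and 0.141 in the WT EB libraries. No KD EB library reached 1, so Cdh1 stayed the higher of the pair per unit of exon length. Which gene is higher depends on the lengths used, 8066 bases for Cdh2 and 4574 bases for Cdh1. In CPM, with no division by length, Cdh2 was the higher in every KD EB library (231 to 239 CPM, against 139 to 149.5 CPM for Cdh1). The ratio of Vim to Epcam was 3.23 to 3.64 in KD EBs and 1.26 to 1.33 in WT EBs, that of Twist1 to Snai1 4.48 to 5.61 in KD EBs and 0.714 to 0.847 in WT EBs, and that of Zeb2 to Zeb1 0.317 to 0.403 in KD EBs and 0.505 to 0.599 in WT EBs. The groups did not overlap in any of these ratios, which describe the members and were not tested.

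Over the summed level of 23 cadherin genes, Cdh1 held 26.7% ± 0.74 of the summed RPKM in KD EBs and 55.9% ± 0.26 in WT EBs (SD, n = 3). Cdh2 held 24.7% ± 0.66 in KD EBs and 8.18% ± 0.65 in WT EBs, and Cdh11 13.1% ± 0.26 in KD EBs and 3.44% ± 0.079 in WT EBs. Cdh6, a cadherin of kidney, neural and some mesodermal precursors, had a share of 14.7% in KD EBs and 7.43% in WT EBs. Cdh3, the P-cadherin of epithelia and placenta, held 12.7% in KD EBs and 14.7% in WT EBs. In ESCs Cdh1 held 73.6% in KD ESCs and 71.9% in WT ESCs, Cdh3 11.3% in KD ESCs and 11.2% in WT ESCs, and Cdh22 8.24% in KD ESCs and 10.8% in WT ESCs. Cdh22 held 0.375% in KD EBs and 0.786% in WT EBs.

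**Figure D2:**
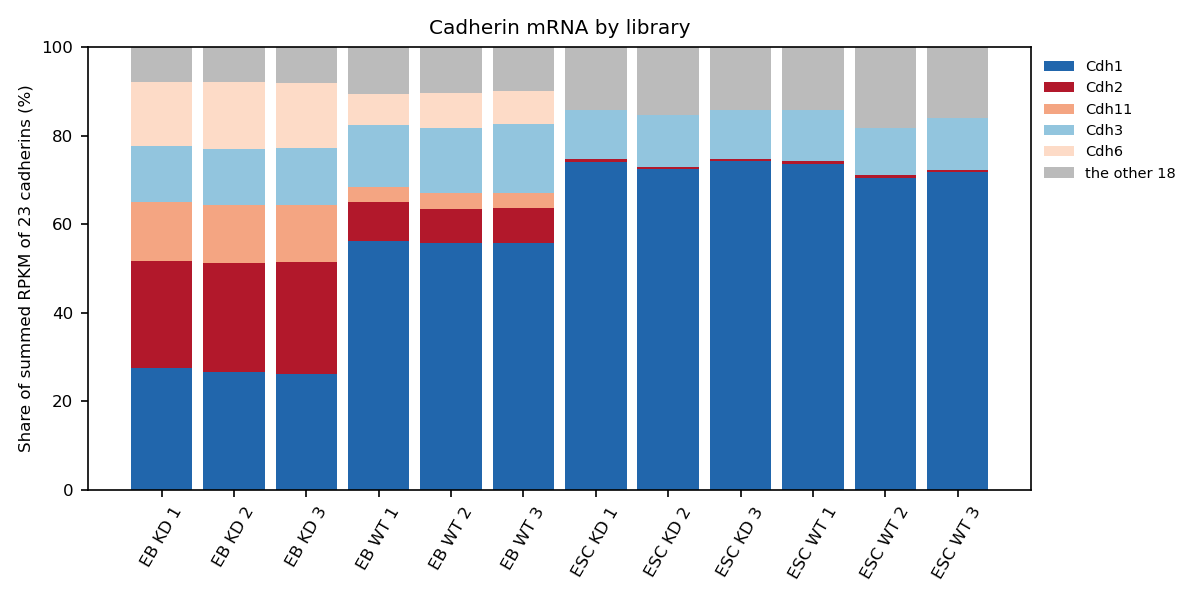
Share of the summed RPKM of 23 cadherin genes (vertical axis, percent) in each of the 12 libraries, stacked from Cdh1 at the bottom. Cdh1 holds 26.1% to 27.5% in the KD EB libraries, 55.7% to 56.2% in the WT EB libraries and over 70% in every ESC library, and Cdh2 and Cdh11 take their largest shares in KD EBs.

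In ESCs none of the members differed between KD and WT by edgeR. Of 8 that could be tested, 0 were called, where 0.603% of 16081 tested genes were called. That background of 97 genes was itself unstable, with 8 to 1557 calls when 1 library was left out, the highest without WT ESC replicate 2, and 1030 with DESeq2. Snai1 was the 1 member with an unadjusted p under 0.05 in edgeR and the 1 that DESeq2 called (adjusted p = 0.0470). Snai1 stood at 8.61, 8.02 and 9.29 CPM in KD ESCs and 5.75, 5.17 and 6.34 CPM in WT ESCs, which do not overlap, with a log2 fold change of 0.59 (SE 0.19, edgeR adjusted p = 0.121). The fit of all 12 libraries called it (adjusted p = 0.00819), and without WT ESC replicate 2, the library that stood apart, its value was 0.52 (adjusted p = 0.122). Vim had 385, 397 and 391 CPM in KD ESCs and 363, 337 and 365 CPM in WT ESCs. These did not overlap either, and the log2 fold change was 0.15 (SE 0.07, edgeR adjusted p = 0.247).

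Cdh1 and Epcam were well expressed in ESCs and overlapped between the groups. Cdh1 averaged 164 ± 6.56 CPM in KD ESCs and 153 ± 9.02 CPM in WT ESCs (log2 0.11, SE 0.07, edgeR adjusted p = 0.422), and Epcam 31.2 ± 1.46 CPM in KD ESCs and 28.8 ± 3.30 CPM in WT ESCs (log2 0.12, SE 0.11, edgeR adjusted p = 0.566; SD, n = 3 each). Zeb1 averaged 8.80 ± 1.09 CPM in KD ESCs and 8.62 ± 0.97 CPM in WT ESCs, and Cdh2 2.09 ± 0.43 CPM in KD ESCs and 2.58 ± 0.65 CPM in WT ESCs. Both overlapped. Snai2, with 6 to 16 counts per library in KD ESCs and 6 to 22 in WT ESCs, and Twist1, with 13 to 36 counts in KD ESCs and 4 to 31 in WT ESCs, were low, and no difference was detectable at this depth, with SEs of 0.69 and 0.72. Cdh11 (0 to 2 counts per library in KD ESCs, 0 in each WT ESC library) and Zeb2 (0 to 2 counts in KD ESCs, 2 to 6 in WT ESCs) were below the minimum for a test. A count of 0 allows a level of up to 3 counts, or 0.0933 to 0.128 CPM in the WT ESC libraries. In ESCs the order per length was Vim, Cdh1, Epcam and Snai1 in both genotypes, with no overlap between these neighbours. Zeb1, Twist1, Cdh2 and Snai2 followed, of which each overlapped the next in KD ESCs and the last 3 did in WT ESCs.

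The KD effects in EBs and in ESCs, which share no libraries, were compared directly in a fit of all 12 libraries. The difference of the effects passed for 8 of the 10 genes, 5 more positive and 3 more negative in EBs, where 23% of 18975 tested genes passed, 12.8% more positive and 10.2% more negative. It was -1.0001 for Cdh1 (SE 0.08, edgeR adjusted p = 5.68e-07), 2.08 for Cdh2 (SE 0.21, edgeR adjusted p = 6.93e-06) and 0.90 for Vim (SE 0.07, edgeR adjusted p = 3.66e-07) on the log2 scale. Epcam (-0.50) and Snai1 (-0.72) had more negative and Zeb1 (1.36) a more positive effect in EBs. The differences for Twist1 (2.09, SE 0.55, edgeR adjusted p = 0.0165) and Zeb2 (2.98, SE 0.85, edgeR adjusted p = 0.0190) rest on few ESC counts. Without WT ESC replicate 3, they were 1.33 (adjusted p = 0.104) and 2.38 (adjusted p = 0.0898). Zeb2 also lost its call without KD ESC replicate 1 (2.49, adjusted p = 0.0558) and without KD ESC replicate 2 (2.43, adjusted p = 0.0605), and Twist1 with no filter on low counts (adjusted p = 0.0765). Without KD ESC replicate 3, the 1 KD ESC library with Zeb2 counts, the fitted Zeb2 difference was 5.95 (adjusted p = 0.00670), so its size is poorly determined. Snai2 did not pass (0.21, SE 0.37, edgeR adjusted p = 0.746), nor did Cdh11, whose ESC counts of 0 to 2 carry no usable effect.

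**Figure D3:**
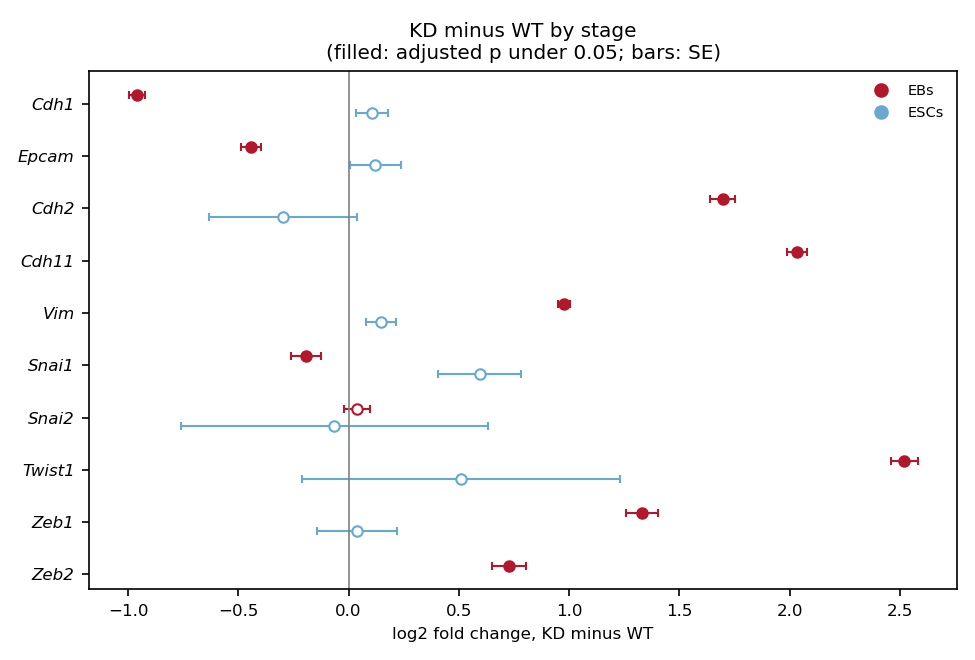
Log2 fold change of KD over WT (horizontal axis) for each gene in EBs and in ESCs, each from the fit of its own stage; bars are the SE, and filled points passed an adjusted p under 0.05. In EBs 9 of 10 points are filled, from -0.96 for Cdh1 to 2.52 for Twist1, and in ESCs none of the 8 tested, with Cdh11 and Zeb2 not plotted there.

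Most of these genes were higher in EBs than in ESCs. Between EBs and ESCs of WT cells, 10 of 10 members differed by edgeR, all higher in EBs, where 79.8% of 18975 tested genes differed, 42.5% higher and 37.3% lower. Between EBs and ESCs of KD cells, 9 were higher and 1 lower, where again 79.8% of tested genes differed, 42.5% higher and 37.3% lower. In KD cells Cdh1 was the exception. It was 1.13-fold lower in KD EBs than in KD ESCs (log2 -0.18, SE 0.06, edgeR adjusted p = 0.00862) and 1.77-fold higher in WT EBs than in WT ESCs (log2 0.82, SE 0.06, edgeR adjusted p = 1.34e-09). The fall in KD cells did not hold everywhere: it turned to 0.19 (adjusted p = 0.0446) when libraries were scaled by their size only, which also moved the median of all genes up by 0.37, and it lost its call with no filter on low counts (-0.15, adjusted p = 0.0558) and without KD EB replicate 3 (-0.14, adjusted p = 0.0588). On the scale of all 12 libraries, the 3 KD EB libraries (139 to 149.5 CPM) lay below the 3 KD ESC libraries (157 to 169.6 CPM).

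Vim showed the contrast the other way. It was 2.07-fold higher in KD EBs than in KD ESCs (log2 1.05, SE 0.05, edgeR adjusted p = 9.66e-12). In WT EBs it was 1.11-fold higher than in WT ESCs (log2 0.15, SE 0.05, edgeR adjusted p = 0.00827). This rise in WT cells lost its call with RLE size factors (log2 0.11, edgeR adjusted p = 0.0519). Over the alternatives run, the log2 value ranged from 0.09 to 0.68 in WT cells and from 0.98 to 1.42 in KD cells. Cdh2 was 113-fold higher in KD EBs than in KD ESCs (log2 6.82, SE 0.15) and 26.8-fold higher in WT EBs than in WT ESCs (log2 4.74, SE 0.14). Epcam was 3.22-fold higher in KD EBs than in KD ESCs (log2 1.69, SE 0.08) and 4.54-fold higher in WT EBs than in WT ESCs (log2 2.18, SE 0.08). Thus the epithelial gene Epcam rose with differentiation in both genotypes.

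Snai2 had a large rise of like size in both genotypes, 102-fold between KD EBs and KD ESCs (log2 6.68, SE 0.21) and 88.3-fold between WT EBs and WT ESCs (log2 6.46, SE 0.21). The difference between these changes is the value of 0.21 above, with an SE of 0.37. Snai1 rose 3.89-fold in KD EBs over KD ESCs and 6.41-fold in WT EBs over WT ESCs, and Zeb1 5.78-fold in KD EBs over KD ESCs and 2.24-fold in WT EBs over WT ESCs. Twist1 rose 184-fold in KD EBs over KD ESCs (log2 7.52, SE 0.30) and 43.2-fold in WT EBs over WT ESCs (log2 5.43, SE 0.32). Cdh11 had 1203 to 1342 counts per library in WT EBs and 0 in each WT ESC library, and was at least 285-fold higher in WT EBs on a floor of 3 counts per library. In KD cells the ratio of summed counts for Cdh11 was 3440 (95% exact counting interval 1177 to 16681, 3 counts in KD ESCs), and for Zeb2 it was 1303 (360.4 to 10762, 2 counts in KD ESCs). Zeb2 was 143-fold higher in WT EBs than in WT ESCs (log2 7.16, SE 0.28), on 2 to 6 counts per WT ESC library. At such counts this SE is likely too small. If mates of a pair were counted singly, which the counts leave likely but no source states, the counting intervals for KD cells are too narrow.

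**Figure D4:**
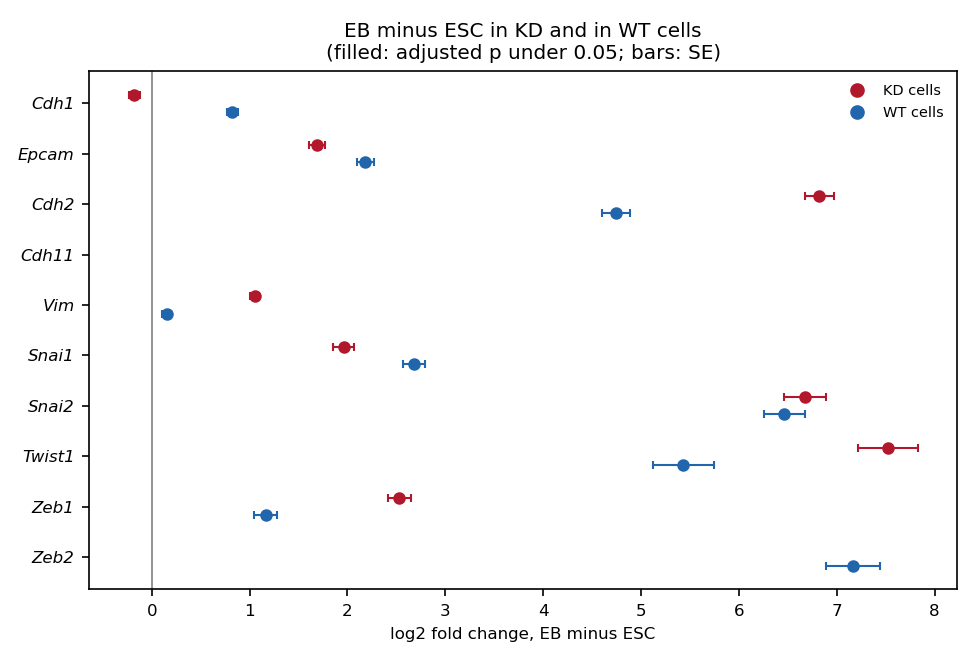
Log2 fold change of EBs over ESCs (horizontal axis) in KD cells and in WT cells from the fit of all 12 libraries. Bars are the SE, which is likely too small for Zeb2 and Snai2 with their few ESC counts. Filled points passed an adjusted p under 0.05. Every plotted point lies above 0 except Cdh1 in KD cells (-0.18, which turned to 0.19 with scaling by library size only), and Cdh11 and Zeb2 in KD cells, and Cdh11 in WT cells, with 0 to 3 summed counts in ESCs, are not plotted.

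Across the 12 libraries, genes whose centred log2 levels were among the nearest to those of a member were found among 11015 other genes by the root mean square difference. For Cdh1 they were Rhbdf2 (0.092), Dhcr7 (0.10) and Nudcd2 (0.11), for Epcam Shroom2 (0.098) and Ahcyl1 (0.11), and for Vim Tpp1 (0.088), Slc2a4 (0.10) and Acadsb (0.10). For Cdh2 they were Tmem119 (0.18), Gas1 (0.30) and Scube1 (0.36), and for Snai2 Col4a1 (0.37), Greb1l (0.39) and Spin2c (0.42), in log2 units. Among the members themselves, Epcam and Snai1 were the nearest pair, at 0.28, and the next, Snai1 and Zeb1, were at 0.64. Among the members, an epithelial adhesion gene and an EMT factor thus had the most alike patterns over these libraries, which are separated mainly by stage. Centring takes out each gene's mean, so this compares patterns and not levels.

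The other genes of junctions, filaments and the EMT programme were read in the same fits, and each count stands against 28% of all tested genes higher and 27.7% lower in KD EBs. Of 12 other cadherins tested in EBs, 2 rose, 6 fell and 4 did not pass (median log2 fold change -0.36, against 0.00 over all genes). Cdh5, the cadherin of endothelium, averaged 5.62 ± 0.55 CPM in KD EBs and 0.312 ± 0.13 CPM in WT EBs (log2 4.08, edgeR adjusted p = 1.83e-13), and Cdh6 45.7 ± 1.53 CPM in KD EBs and 20.7 ± 0.88 CPM in WT EBs (log2 1.08, edgeR adjusted p = 2.11e-14). Cdh16, a cadherin of kidney tubules, had 0 counts in all 3 KD EB libraries and 1.40 ± 0.44 CPM in WT EBs (edgeR adjusted p = 6.54e-09), at least 17.04-fold lower on a floor of 3 counts per library. Genes for the catenins and other junction partners mostly had small changes: of 17 tested, 3 rose, 6 fell and 8 did not pass, with a median of -0.04. Ctnnb1 and Ctnna1, the beta- and alpha-catenin of the junction, were at -0.01 each and did not pass, Ctnnd1, the p120 catenin that holds cadherins at the membrane, fell by 0.34 on the log2 scale, and Lima1, an actin-binding partner of alpha-catenin, rose by 0.98.

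Epithelial genes grouped as targets of SNAI and ZEB repression mostly fell in KD EBs: 16 of 22 fell, 1 rose and 5 did not pass, with a median of -0.48. Krt7, a keratin of simple epithelia, averaged 1.12 ± 0.29 CPM in KD EBs and 5.74 ± 0.37 CPM in WT EBs, and Cldn4 17.2 ± 1.53 CPM in KD EBs and 64.5 ± 2.11 CPM in WT EBs (log2 -2.42 and -1.97). The gene that rose was Dsp, the plaque protein of desmosomes, at 408 ± 7.28 CPM in KD EBs and 273 ± 7.81 CPM in WT EBs (log2 0.52). Of the 12 genes with the E-box in the window before the start, 8 fell, 0 rose and 4 did not pass, and of the 4 without it 3 fell and 1 rose, so that falls stood in both sets. Factors that maintain the epithelial state were split, with 5 of 12 higher and 5 lower (median 0.45). Klf4 (log2 1.17) and Grhl3 (0.73) rose, and Rab25 (-1.13), a small GTPase of epithelial traffic, Elf3 (-1.01) and Ovol2 (-0.91), a repressor of Zeb1, fell.

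Mesenchymal genes mostly rose: of 19 tested in EBs, 12 rose, 3 fell and 4 did not pass, with a median of 0.87. Col3a1, a fibrillar collagen, averaged 722 ± 18.6 CPM in KD EBs and 9.46 ± 2.103 CPM in WT EBs (log2 6.19, edgeR adjusted p = 5.94e-06), Lum 34.6 ± 1.55 CPM in KD EBs and 0.585 ± 0.20 CPM in WT EBs (log2 5.81), and Postn 132 ± 2.83 CPM in KD EBs and 5.52 ± 0.21 CPM in WT EBs (log2 4.51). Thy1 (log2 -2.07) and Mmp2 (-0.35) were among those that fell. Col1a1 (-0.04) and Sparc (-0.01), both widely used mesenchymal markers, did not pass. Of the other EMT-promoting transcription factors 11 of 19 rose, 3 fell and 5 did not pass (median 0.43). Prrx1, a homeobox factor of limb and craniofacial mesenchyme, averaged 44.1 ± 0.51 CPM in KD EBs and 9.22 ± 0.68 CPM in WT EBs (log2 2.20), Foxq1 rose by 1.73 and Foxc2 by 1.49 on the log2 scale, and Snai3 (-1.67), the third SNAI gene, and Sox9 (-0.32) fell.

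Of the TGF-beta ligands, receptors and SMADs, a pathway that induces SNAI and ZEB factors in many cells, 12 of 18 rose, 3 fell and 3 did not pass in KD EBs (median 0.30). The type I receptor gene Tgfbr1 averaged 140 ± 4.55 CPM in KD EBs and 53.3 ± 4.94 CPM in WT EBs (log2 1.33), and Tgfbi, a secreted matrix protein induced by the pathway, 90.8 ± 4.54 CPM in KD EBs and 17.5 ± 1.16 CPM in WT EBs (log2 2.32). The ligand gene Tgfb3 rose (log2 1.48), Tgfb1 fell by 0.25 on the log2 scale, and Tgfb2 did not pass (0.03). Of the corepressors through which SNAI and ZEB proteins act, 4 of 10 rose, 3 fell and 3 did not pass, with a median of -0.00, which is close to the shares over all genes. Suv39h1 (1.07) and the CtBP genes Ctbp2 (0.83) and Ctbp1 (0.48) rose, while Ajuba (-0.60) and Kdm1a (-0.34) fell. Of the gastrulation EMT genes 5 of 12 rose and 4 fell (median 0.01), among them Mixl1 (2.69) and T (0.93), which rose, and Mesp1 (-1.99), Fgf8 (-1.63) and Crb2 (-0.89), which fell. Of the filament partners of vimentin, 1 of 6 rose, 3 fell and 2 did not pass (median -0.26), led by Des, the muscle filament, at 15.999 ± 0.41 CPM in KD EBs and 57.8 ± 1.41 CPM in WT EBs (log2 -1.91). In ESCs, 2 of the 123 tested genes of these 10 lists differed, both lower in KD: Krt19 (log2 -0.74, edgeR adjusted p = 0.0243) and Lmna (log2 -0.71, edgeR adjusted p = 0.0329), named after their values were seen. Over all tested genes in ESCs, 0.603% were called and 0.435% were lower, and 35 of the 123 had an unadjusted p under 0.05, as had 3447 of all 16081.

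**Figure D5:**
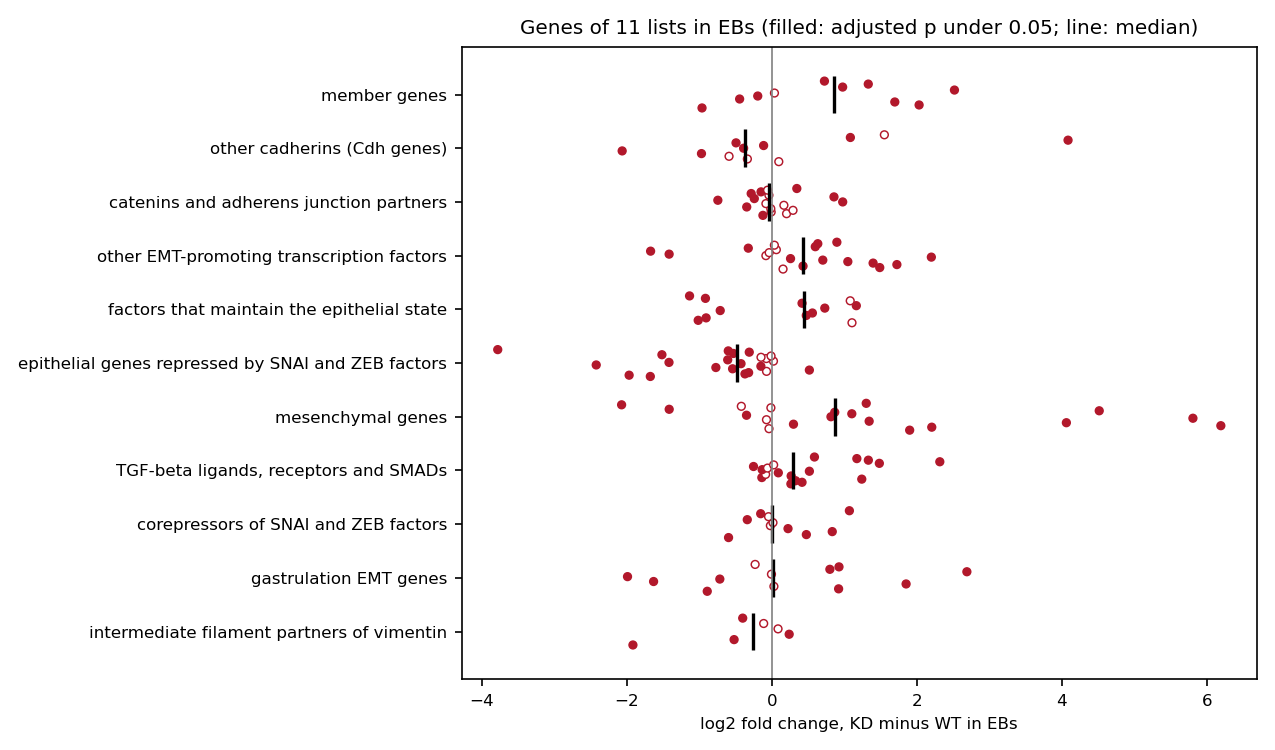
Log2 fold change of KD over WT in EBs (horizontal axis) for the tested genes of the 10 members and of 10 other lists (rows); each point is a gene, filled where its adjusted p was under 0.05, and the black line is the median of the list. The medians of the mesenchymal genes (0.87) and of the epithelial targets of SNAI and ZEB (-0.48) lie on opposite sides of 0, and Cdh16, at 0 counts in KD EBs, is not plotted.

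Markers of several lineages also moved between KD EBs and WT EBs, beside the changes of the members. Each count of markers below stands against 28% of all tested genes higher and 27.7% lower in KD EBs. The summed level of 10 lateral mesoderm and mesenchyme markers was 2434 to 2489 CPM in KD EBs and 1460 to 1480 CPM in WT EBs, with 8 higher and 1 lower of 10 (Hand1, at 509 CPM in KD EBs and 770 CPM in WT EBs), and that of 6 endothelial markers 227 to 239 CPM in KD EBs and 116 to 122 CPM in WT EBs, with 5 higher and 1 lower. The 6 surface ectoderm markers summed to 1665 to 1777 CPM in KD EBs and 2395 to 2499 CPM in WT EBs (1 higher and 3 lower of 4 tested), nearly all from Krt8 and Krt18, while Krt5 and Trp63 were under 1 CPM in every EB library and Krt14 averaged 1.81 CPM in KD EBs and 0.138 CPM in WT EBs. Neural crest markers summed to 106 to 110.1 CPM in KD EBs and 109 to 116 CPM in WT EBs (3 higher, 3 lower), and Sox10 averaged 0.383 CPM in KD EBs and 6.37 CPM in WT EBs. Cardiac muscle markers were 23.1 to 25.4 CPM in KD EBs and 56.1 to 63.7 CPM in WT EBs (0 higher, 4 lower), extraembryonic endoderm markers 787 to 813 CPM in KD EBs and 485 to 496 CPM in WT EBs (5 higher, 3 lower), and neuroectoderm markers 102 to 106 CPM in KD EBs and 79.4 to 83.9 CPM in WT EBs (3 higher, 1 lower). Of the naive pluripotency markers, 9 of 10 were higher in KD EBs. The exception, Nanog, averaged 45.4 CPM in KD EBs and 46.6 CPM in WT EBs. Nascent and paraxial mesoderm markers were low, at 24.5 to 25.2 CPM in KD EBs and 9.19 to 12.5 CPM in WT EBs (2 higher and 1 lower of 6 tested). Blood markers summed to 19.5 to 20.05 CPM in KD EBs and 11.7 to 13.7 CPM in WT EBs, but 1 of the 3 tested was higher (Runx1, 13.9 CPM in KD EBs and 4.69 CPM in WT EBs) and 2 were lower (Gata1 and Itga2b). The part of these shifts in the members' changes was not tested.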

How the data were processed

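RNA sequencing of 12 poly-T-selected mouse libraries was read from 2 deposited count tables, 1 for EBs and 1 for ESCs. Alignment to mm10 was with HISAT2 2.1.0 and counting with featureCounts 2.0.3, per the submitters' processing notes, which also name DESeq2 1.18.1. The deposited values are, per the file headers, raw counts per gene with the Ensembl release 90 annotation of GRCm38, from pairs with both ends mapped and without chimeras. The header names no strand option and no counting of pairs, and 61.7% to 68.7% of counts from 1 to 10 were even, as counts of single mates would be, but no source states how mates were counted. The treatment of multiply mapped reads is not given in the sources used here. Of 52636 genes, 52403 were matched to a symbol.

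KD and WT libraries of a stage were compared with edgeR 4.0.16 (R 4.3.3, limma 3.58.1): TMM normalization, filterByExpr (minimum count 10, minimum total 15), robust quasi-likelihood F-tests and Benjamini-Hochberg adjustment over all tested genes, called under 0.05. The difference between stages, and EBs against ESCs, came from a fit of all 12 libraries. SEs were taken as the size of the log2 fold change over the root of its F statistic. Where a group had few counts, as for Zeb2 and Snai2 in ESCs, such an SE can be smaller than the counting error. CPM and RPKM used TMM factors over all 12 libraries and the length given in the tables. Likeness used log2 CPM (prior count 2) of genes with a mean of at least 2. DESeq2 1.42.0, other normalizations, no filter, no robust estimates, a replicate block and leaving out each library were the alternatives. The scripts were tested on simulated data.

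The members and gene lists were chosen with earlier results of these data known. All 10 members are named, and from each other list up to 3 called genes per direction with the largest change in EBs, together with a few named after their values were seen (Ctnnb1, Ctnna1, Col1a1, Sparc, Tgfb2, Krt19, Lmna and the markers). Some genes that this rule takes are not reported here. Replicate numbers were not taken to pair the samples. The correlation of the deviations of same-numbered libraries lay between -0.077 and 0.14, which does not settle whether those libraries were prepared together. Errors cover only the spread between libraries, and counting intervals cover counting error alone.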

Additional observations from a re-analysis of the deposited data

Results flagged for a closer look

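For 8 genes the KD effect in EBs and that in ESCs differed by a test of the difference itself (edgeR, all 12 libraries, log2 scale). It was more negative in EBs for Cdh1 (-1.0001, adjusted p = 5.68e-07), Epcam (-0.50, adjusted p = 0.00613) and Snai1 (-0.72, adjusted p = 0.00247). It was more positive in EBs for Cdh2 (2.08, adjusted p = 6.93e-06), Vim (0.90, adjusted p = 3.66e-07) and Zeb1 (1.36, adjusted p = 3.32e-05). It was also more positive for Twist1 (2.09, adjusted p = 0.0165) and Zeb2 (2.98, adjusted p = 0.0190), whose ESC counts were 4 to 36 and 0 to 6 per library and which did not pass without some of the ESC libraries. For Snai1 the KD effects had opposite signs, -0.19 in EBs and 0.59 in ESCs, and neither call was stable: within its stage the EB value passed in edgeR (adjusted p = 0.0141) and the ESC value did not (adjusted p = 0.121), while in the fit of all 12 libraries the EB value did not (adjusted p = 0.319) and the ESC value did (adjusted p = 0.00819).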

How the results depend on the processing

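The number of genes called between KD ESCs and WT ESCs depended on the processing: 97 in the fit reported, 1030 with DESeq2, 36 with scaling by library size only, 1769 with no filter on low counts, 266 with the replicate block and 1999 in the fit of all 12 libraries. Leaving out 1 library gave 8 to 1557 calls, the highest without WT ESC replicate 2, and under it 0 of 8 members passed. The share called higher was 27.8% as reported, 39.0% with no filter, 48.5% when all 12 libraries were fitted and 40.1% without WT ESC replicate 2. The other 4 counts stayed within 1.5 times under every alternative run. The block changed no call of a member between KD and WT. Of the members' values under the alternatives, 126 of 130 for KD against WT in EBs, 97 of 104 in ESCs, 173 of 180 for the difference between stages, 119 of 120 for WT cells and 117 of 120 for KD cells between EBs and ESCs kept their direction and side of the threshold. Signs turned for Snai2 in ESCs (0.025 with library size only, -0.35 to 0.30 without a replicate), Zeb1 in ESCs (-0.057 to 0.13 without a replicate), Snai2 in EBs (-0.000278 to 0.087, the lowest without KD EB replicate 3) and the difference between stages for Snai2 (-0.24 to 0.45 without a replicate), none of which was called, and for Cdh1 between KD EBs and KD ESCs (0.19 with library size only). Library size only moved the median of all genes by 0.53 between EBs and ESCs in WT cells, 0.37 in KD cells, 0.11 in KD against WT ESCs and -0.16 in the difference between stages, and moved most levels per length. The causes were not tested. Counts of 0 to 6 limit Cdh11 and Zeb2 in ESCs.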
